A study of Homo sapiens with 18 samples.

Results

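The transcriptional effect of repeated dopamine exposure was measured in cerebral organoids grown by a ventral forebrain protocol, as the difference between 6 dopamine libraries and 6 vehicle control libraries with the inhibitor state of each library held as a block. These 12 libraries were chosen from 18 by the treatment named in their labels; the other 6 libraries, which received cocaine, entered only 1 comparison. The organoids are neural tissues grown from H9, a human embryonic stem cell line, and per the labels' protocols SHH (100 ng/mL) and purmorphamine (1 µM), which activate the same ventralising pathway, were added from day 10. From day 83 they were dosed each day for 1 week, with medium replaced 1 h after every dose. The dopamine group (3 libraries) received 1 µM dopamine in 100 µM ascorbic acid, and the control group (3 libraries) received 100 µM ascorbic acid alone, so an antioxidant was present in every group. The dopamine + inhibitor and control + inhibitor groups (3 libraries each) were given 100 µM acetylcysteine as well, a thiol compound used here as an inhibitor of reactive oxygen species. The series' design text names a further cell line that was not analysed here. Whether the 3 libraries of 1 group were separate cultures is not stated in the labels, and p-values therefore reflect only the spread among these libraries, possibly a technical one.

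Dopamine is a monoamine transmitter that acts on G protein-coupled receptors, of which the D1 type raises and the D2 type lowers cyclic AMP. Inside cells it is broken down by the monoamine oxidases of the outer mitochondrial membrane, a reaction that releases hydrogen peroxide, and in solution it oxidises to reactive quinones. Cells under protein or oxidative stress commonly raise chaperones and the machinery that folds, loads and transports secretory proteins.

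The 12 libraries held between 23789195 and 30327891 reads over genes, and between 24131 and 24406 genes had at least 1 read in a library. A principal component analysis of these libraries placed 20.8% of the variance on a first component that did not separate the treatments. The second component carried 12.9%, with dopamine libraries between −0.157 and 14.5 and control libraries between −15.8 and −1.37, so the treatments did not overlap on it. Neuronal genes were abundant in every library: the pan-neuronal markers, led by DCX, summed to between 13220 and 14450 CPM (reads per 1000000, scaled with edgeR's TMM factors) in dopamine libraries and between 13170 and 15820 CPM in controls. The ventral forebrain and interneuron markers, led by MEIS2, summed to between 1063 and 1562 CPM in dopamine libraries and to between 1177 and 1510 CPM in controls. Markers of caudal fates were also present, and the midbrain and hindbrain list, led by HOXB3 at 66.1 to 209 CPM, summed to between 293 and 617 CPM over the 12 libraries.

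Dopamine changed few genes, most of them upward and by small amounts. Of 18663 genes tested, 106 (0.568%) passed an adjusted p of 0.05, with 83 higher (0.445%) and 23 lower (0.123%) in dopamine libraries; here and throughout, adjusted p-values come from edgeR's quasi-likelihood test, with Benjamini-Hochberg adjustment across every tested gene, and genes that passed are named called genes. The median size of the change among called genes was 0.32 on the log2 scale, and 14 of the 106 changed by at least 1. Of those 14, 8 averaged below 1 CPM. At an unadjusted p of 0.05, 2058 genes passed. Every one of the 106 genes had the same direction of change without the inhibitor and with it, beside 51.6% of all genes tested. The pooled fit that chose these genes used both states, so this agreement was largely built in and supports nothing. Dopamine and control libraries did not overlap within either inhibitor state for 73 of the called higher genes and 16 of the called lower genes; over all genes tested, 255 (1.37%) and 139 (0.745%) met that condition. The 6 dopamine and 6 control libraries did not overlap as whole sets for 66 called higher and 6 called lower genes, against 163 (0.873%) and 63 (0.338%) over all genes tested. The number of calls rested on single libraries: it was 36, 55 and 34 without control 1, 2 and 3, 45, 43 and 47 without dopamine 1, 2 and 3, 48 without dopamine + inhibitor 2, 70 without control + inhibitor 2 and 171 without control + inhibitor 3.

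The effects in the separate inhibitor states did not share control libraries, so they can be set against each other. Without the inhibitor 179 genes (0.959%) were called between dopamine and control, and with the inhibitor 2 genes (0.0107%) were called, BIRC7, which encodes an inhibitor of apoptosis protein, and LOC102724701. Of the 179, 136 (76.0%) had the same direction with the inhibitor, beside 51.6% of all genes tested. The 106 genes of the pooled comparison had a median change of 0.40 without and 0.27 with the inhibitor on the log2 scale, and the change was smaller with the inhibitor for 86 of them and larger for 20. The difference between the states was tested itself and passed for 1 gene among all tested (0.00536%), DDIT4, and for 0 of the 106. At an unadjusted p of 0.05, 1644 genes passed that test by edgeR, 17 of them among the 106. The count without the inhibitor also rested on single libraries, being 9, 34 and 5 without control 1, 2 and 3, 53, 2 and 71 without dopamine 1, 2 and 3, and 415 without control + inhibitor 2. With the inhibitor the count was 0 to 2 whichever library was left out, being 0 without control + inhibitor 1 or 2, dopamine + inhibitor 2 or 3, or dopamine 1, and the count of differences between states was 2 without dopamine 1 and 1 otherwise.

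**Figure D1:**
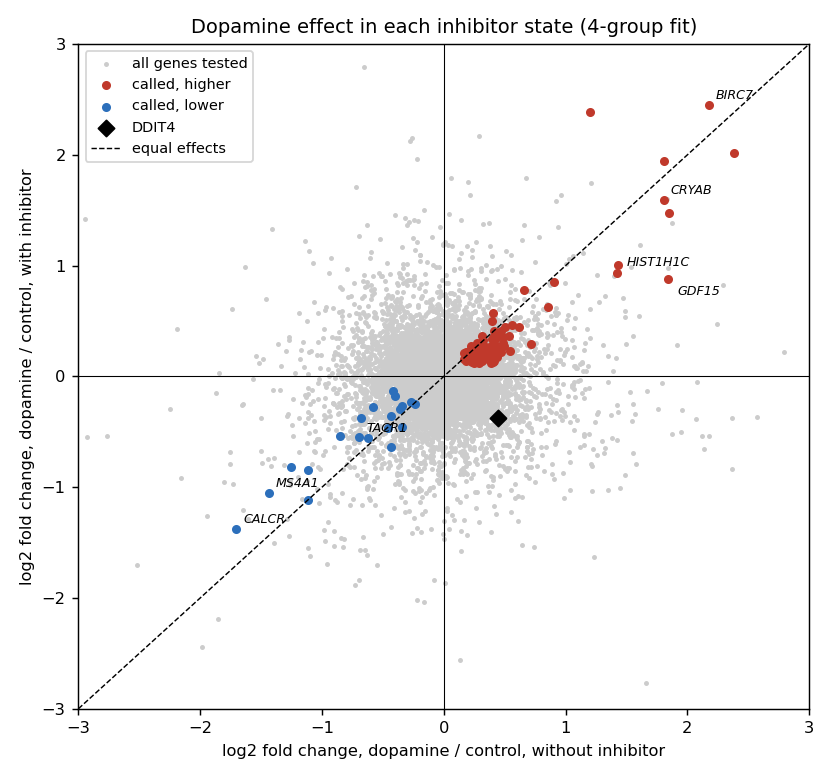
Log2 fold change of dopamine over control for each gene tested, without the inhibitor (horizontal axis) and with it (vertical axis), with called higher genes in red, called lower genes in blue, DDIT4 as a black diamond and equal effects as a dashed line; 23 genes, none of them called, lie beyond the axis limits of 3. All called genes drawn in color lie in the lower left and upper right quadrants, and most lie closer to the horizontal axis than the dashed line does.

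The rises included genes of the secretory pathway. Proteins bound for secretion are recognised while being made by the signal recognition particle (SRP), pass to the Golgi in vesicles coated with COPII, and are received there by tethers that include the golgins. ARF4, a GTPase that recruits coats to Golgi membranes (chr3:57571363-57597344, RefSeq GRCh38.p14), measured 209, 237 and 224 CPM in dopamine libraries and 209.5, 203 and 188 CPM in dopamine + inhibitor libraries. It measured 157, 163 and 161 CPM in control libraries and 165, 156 and 166 CPM in control + inhibitor libraries. Each dopamine library was above each control library, and ARF4 rose by 0.39 on the log2 scale (SE 0.045, adjusted p = 0.00145), from 161 ± 4.26 to 212 ± 17.1 CPM (SD, n = 6 and 6). It was called whichever library was left out.

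The SRP and its receptor rose in 3 of 8 members tested, beside 83 of 18663 (0.445%) called higher over all genes tested. SRP54, the subunit that binds the signal sequence, measured 92.7, 96.6 and 91.1 CPM with dopamine, 88.2, 85.6 and 79.5 CPM with dopamine and the inhibitor, 71.6, 71.7 and 71.0 CPM in control libraries and 72.2, 67.8 and 74.9 CPM in control + inhibitor libraries. The lowest dopamine library was above the highest control library, with a rise of 0.31 (log2, SE 0.042, adjusted p = 0.00322). Both subunits of the receptor rose as well, SRPRA by 0.35 (log2, adjusted p = 0.00372) and SRPRB by 0.27 (adjusted p = 0.0354). With a library left out, the calls of SRP54 and SRPRA held in all 12 fits and that of SRPRB in 4. The median over the 8 members was 0.05 on the log2 scale, and the other 5 members, among them SRP72 and SRP68, were not called.

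Of 14 COPII genes tested, 5 were called higher, beside 0.445% of all genes tested. The 5 were the cargo adaptors SEC24D (0.39) and SEC24A (0.30), the GTPase SAR1B (0.27) that starts coat assembly, and the outer coat proteins SEC13 (0.24) and SEC31A (0.16), all on the log2 scale. SEC24A, SAR1B and SEC13 kept their calls in all 12 fits with a library left out, SEC24D in 5 and SEC31A in 4. The inner coat protein SEC23A changed by 0.12 (adjusted p = 0.208) and SEC16B by −0.28 (adjusted p = 0.441). In the COPI coat, which carries vesicles within and back from the Golgi, 7 of 9 genes had positive changes and 0 were called by edgeR or DESeq2, with 4 at an unadjusted p under 0.05. Of 10 golgins tested, all 10 had a positive change in both inhibitor states, beside 4566 of 18663 over all genes tested. That count was 9 of 14 for COPII, 5 of 9 for COPI and 4 of 8 for the SRP and its receptor. Medians without and with the inhibitor were 0.10 and 0.08 for COPII and 0.12 and 0.01 for COPI. For the SRP and its receptor they were 0.10 and 0.002, and for golgins 0.24 and 0.17. The pooled median of the golgins was 0.20 (log2), and GOLGA5 (0.24), GOLGB1 (0.22) and GOLGA2 (0.20) were called. GOLGA5 kept its call in all 12 fits with a library left out, and GOLGB1 and GOLGA2 in 5 each. GOLGA4 had a larger estimate, 0.33, but its SE was 0.079 and its adjusted p was 0.0931. The families in these sentences were put together after the values had been seen, so their counts describe the data and support nothing.

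Several other called genes with a role in the endoplasmic reticulum (ER) or Golgi were picked out after the values had been seen, with no list or test behind them. P4HB, a protein disulfide isomerase of the ER, rose by 0.36 (log2, adjusted p = 0.0111), and ERO1A, the oxidase that supplies it with disulfides, rose by 0.30 (adjusted p = 0.015). SERP1, which associates with the ER translocon, rose by 0.21, DNAJB9, an ER cochaperone, by 0.28, ARL1, a GTPase of the trans-Golgi, by 0.31, and the Golgi membrane proteins GOLT1B and YIPF2 by 0.29 and 0.26. P4HB, ARL1 and YIPF2 were called in all 12 fits with a library left out, ERO1A in 11, GOLT1B in 8, SERP1 in 4 and DNAJB9 in 3. The hexosamine pathway, which makes the sugar nucleotide for protein glycosylation, was also put together after the values had been seen. In it 2 of 5 genes tested were called higher, beside 0.445% of all genes tested, and 2 of 5 were positive in both inhibitor states. The first enzyme GFPT1 rose by 0.32 (SE 0.045, adjusted p = 0.00372) and PGM3 by 0.26 (adjusted p = 0.031), while UAP1 changed by 0.08 (adjusted p = 0.535), GNPNAT1 by −0.01 (adjusted p = 0.952) and GFPT2 by −0.02 (adjusted p = 0.931). The GFPT1 call held in all 12 fits with a library left out and that of PGM3 in 4. GFPT1 measured 174, 205 and 188 CPM with dopamine and 171, 184 and 171 CPM with dopamine and the inhibitor. Its control libraries measured 145, 153 and 138 CPM without and 147, 146 and 147 CPM with the inhibitor, below every dopamine library.

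**Figure D2:**
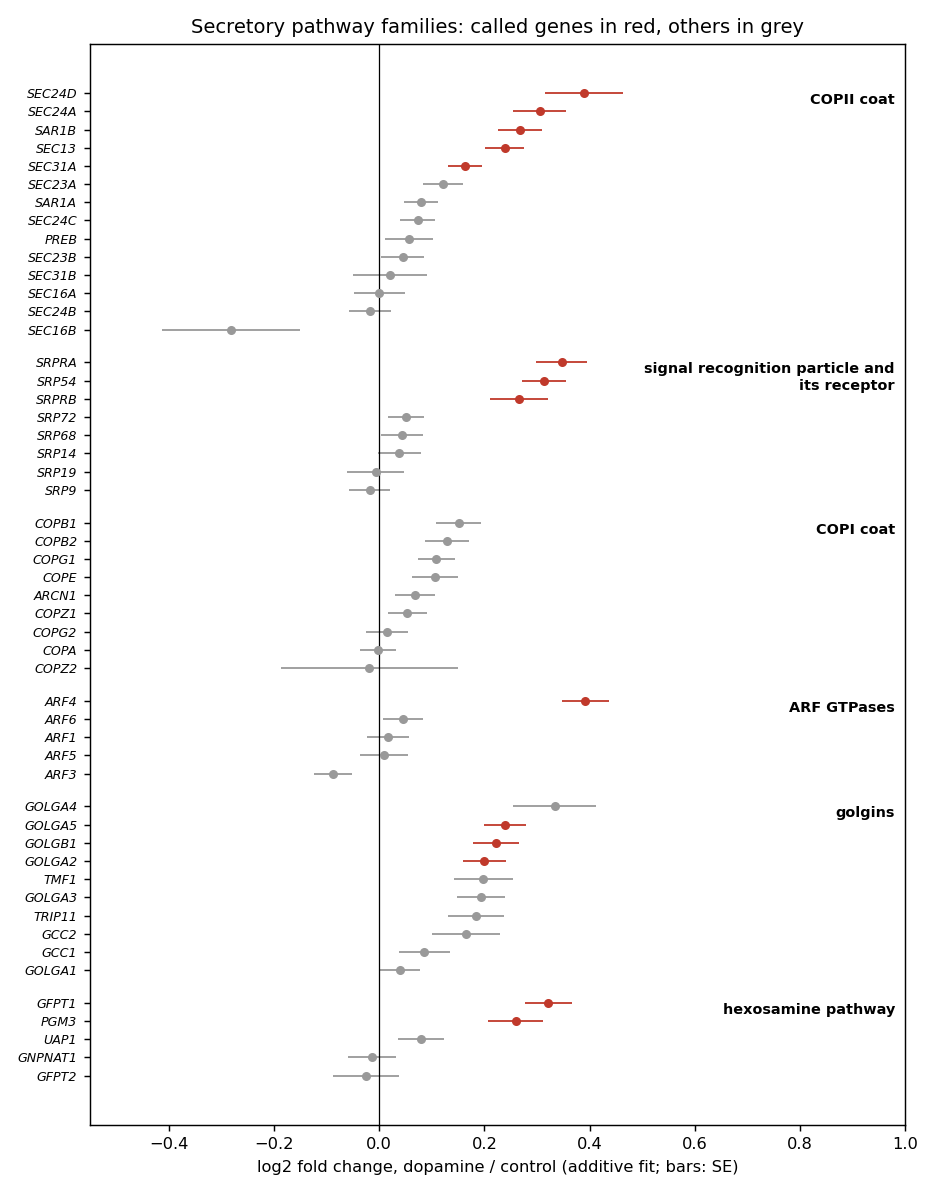
Log2 fold change of dopamine over control in the additive fit for every tested member of 6 secretory pathway families, with SE bars, called genes in red and others in grey. Called genes lie between 0.16 and 0.39; the COPI coat has none.

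The 250 bases before 1 transcript start per gene, as chosen in a table of RefSeq promoters (GRCh38.p14), were searched on both strands for 9 short motifs; the table matched 13543 genes tested, 67 called higher genes and 16 called lower genes. Of 13526 promoters that could be compared with the span of their gene, 11307 began at its 5′ end and 2219 used a start inside it, and for the called higher genes these counts were 55 and 12. ACGTGGC, a motif published as a response element to Golgi stress, occurred in 13 of the 67 higher-gene promoters (19.4%) and in 504 of the 13543 (3.72%), as well as in 2 of 16 lower-gene promoters. It contains ACGTG, the core bound by hypoxia-inducible factors, which occurred in 28 of 67 (41.8%) beside 22.3% of all. The palindrome CACGTG occurred in 8 of 67 (11.9%) beside 8.47%, the unfolded protein response element TGACGTGG, which overlaps the first motif in the letters ACGTGG, in 2 (2.99%) beside 0.731%, and the cyclic AMP response element TGACGTCA in 2 (2.99%) beside 2.67%. The ER stress response element had 1 match (1.49%) beside 0.133%, ER stress response element II 0 beside 0.096%, the C/EBP-ATF response element TGATGNAAN 1 (1.49%) beside 1.52%, and the heat shock element 0 beside 0.332%. The motifs were chosen after the called genes were known, and a match is a description of letters, not a bound site. The higher-gene matches were in GFPT1, PGM3, SEC24A, SEC31A, SRPRB, GOLGA5, PRRC1, FTL, MFSD2A, MZT1, MIR22HG, BIRC7 and CBR1. They are shown here for the 6 secretory and hexosamine genes, 5′ to 3′ on the strand of the gene with the motif or its reverse complement in capitals, as the whole window for GFPT1 (chr2:69387228-69387477, minus strand) and GOLGA5 (chr14:92794055-92794304, plus strand) and as 29 bases around the match for the rest, whose windows overlap annotated exons:
GFPT1: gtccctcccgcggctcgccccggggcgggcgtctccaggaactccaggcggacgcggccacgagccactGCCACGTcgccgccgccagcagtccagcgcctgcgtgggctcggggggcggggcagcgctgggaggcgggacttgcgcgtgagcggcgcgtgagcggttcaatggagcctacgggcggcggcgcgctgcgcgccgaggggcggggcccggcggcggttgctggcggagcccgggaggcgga
GOLGA5: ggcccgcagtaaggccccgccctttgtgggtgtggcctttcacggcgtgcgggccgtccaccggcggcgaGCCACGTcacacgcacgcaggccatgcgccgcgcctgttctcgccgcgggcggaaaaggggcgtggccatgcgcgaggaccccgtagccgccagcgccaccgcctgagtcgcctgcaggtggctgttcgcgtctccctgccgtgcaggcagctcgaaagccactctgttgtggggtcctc
SEC24A (chr5:134648597-134648625, plus strand): gagagtcggtgACGTGGCggcgaggccgg
SEC24A (chr5:134648730-134648758, plus strand): gagccggaagtGCCACGTgtcctgattgc
SEC31A (chr4:82900602-82900630, minus strand): gccaatgacagGCCACGTtgtgtcccagc
SRPRB (chr3:133805786-133805814, plus strand): cgcgcctgcgcagagtgcaggGCCACGTc
PGM3 (chr6:83193266-83193294, minus strand): cgagccggaagccacgcaggGCCACGTct
In these stretches the match began 181 bases before the table's start for GFPT1, 180 before GOLGA5, 177 and 44 before SEC24A, 50 before SEC31A, 8 before SRPRB and 9 before PGM3. That start was the 5′ end of the gene for GFPT1, GOLGA5 and SEC31A, and lay 403, 21792 and 635 bases inside the annotated span for SEC24A, SRPRB and PGM3, whose stretches are therefore within the gene.

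CRYAB, a small heat shock protein (chr11:111908564-111923740), had the largest rise among called genes with at least 1 CPM. It measured 8.52, 12.7 and 8.51 CPM with dopamine, 10.2, 11.2 and 10.5 CPM with dopamine and the inhibitor, 2.34, 3.07 and 3.08 CPM in control libraries and 6.07, 1.07 and 3.40 CPM in control + inhibitor libraries. All dopamine libraries were above all controls, and the change was 1.70 on the log2 scale (SE 0.30, adjusted p = 0.0393). The call held in 2 of 12 fits with a library left out, those without control + inhibitor 1 (adjusted p = 0.0048) and without control + inhibitor 2 (adjusted p = 0.00522), and the highest adjusted p among the 12 was 0.124.

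GDF15, a secreted stress cytokine, measured 5.45, 4.76 and 6.79 CPM with dopamine and 2.95, 3.69 and 3.02 CPM with dopamine and the inhibitor, above every control library (1.13 to 2.70 CPM), and rose by 1.38 (log2, SE 0.23, adjusted p = 0.0188). The linker histone gene HIST1H1C rose by 1.18 (SE 0.15, adjusted p = 0.00322), from 4.42 ± 0.938 to 10.0 ± 1.88 CPM (SD, n = 6 and 6). The chaperone HSPA1A rose by 0.74 (SE 0.13, adjusted p = 0.0188), from 5.54 ± 1.20 to 9.30 ± 1.23 CPM, without overlap. HSPA1A has a near-identical copy, HSPA1B, so reads may be split between them; HSPA1B changed by 0.21 (adjusted p = 0.158). The GDF15 call was lost without control 2 (adjusted p = 0.0545) or control 3 (adjusted p = 0.0831), and that of HSPA1A without control 1 (0.0566), dopamine 3 (0.0514) or dopamine + inhibitor 2 (0.0519).

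The stress lists moved mostly in 1 direction but few of their genes were called. Of 27 genes of the integrated stress response, the program that follows phosphorylation of the translation factor eIF2, 26 had a positive change (median 0.10, log2), and 2 were called: DDIT3, the transcription factor CHOP, at 0.51 (SE 0.11, adjusted p = 0.0457), and PPP1R15A, which reverses that phosphorylation, at 0.25 (SE 0.042, adjusted p = 0.0129). DDIT3 kept its call in 3 of 12 fits with a library left out, those without control + inhibitor 1, control + inhibitor 3 or dopamine + inhibitor 3, and PPP1R15A in all 12. ATF3 changed by 0.62 (adjusted p = 0.0982) and ATF4 by 0.13 (adjusted p = 0.171). Of 22 heat shock chaperones 20 had a positive change (median 0.08), and CRYAB and HSPA1A were called; HSPA6 changed by 1.57 (adjusted p = 0.0513). Of 25 genes of the ER unfolded protein response 22 were positive (median 0.09), DNAJB9 alone was called, and HSPA5, the main ER chaperone, changed by 0.20 (adjusted p = 0.0931).

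Among 24 p53 targets tested, 18 had a positive change (median 0.10), and GDF15, the ribonucleotide reductase subunit RRM2B (0.39) and the death receptor TNFRSF10B (0.27) rose. CDKN1A changed by 0.24 (adjusted p = 0.289). Among 26 hypoxia targets, 19 were positive (median 0.13), and ERO1A and the glucose transporter SLC2A3 (0.30) rose, while VEGFA changed by −0.05 (adjusted p = 0.825). With a library left out, the calls of RRM2B and SLC2A3 held in 6 of 12 fits each and that of TNFRSF10B in 4. Over all genes tested, 8975 of 18663 had a positive change, 83 (0.445%) were called higher and the median was −0.0046 on the log2 scale. Positive in both inhibitor states were 19 of 27 integrated stress response genes, 12 of 22 heat shock chaperones and 15 of 25 unfolded protein response genes. The same held for 10 of 24 p53 targets and 14 of 26 hypoxia targets, beside 4566 of 18663 tested. The medians of these lists were larger without the inhibitor than with it: 0.22 and 0.06 for the integrated stress response, 0.19 and 0.00 for heat shock chaperones, 0.12 and 0.04 for the unfolded protein response, 0.23 and 0.01 for p53 targets, and 0.23 and 0.02 for hypoxia targets. The differences between these medians were not tested.

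**Figure D3:**
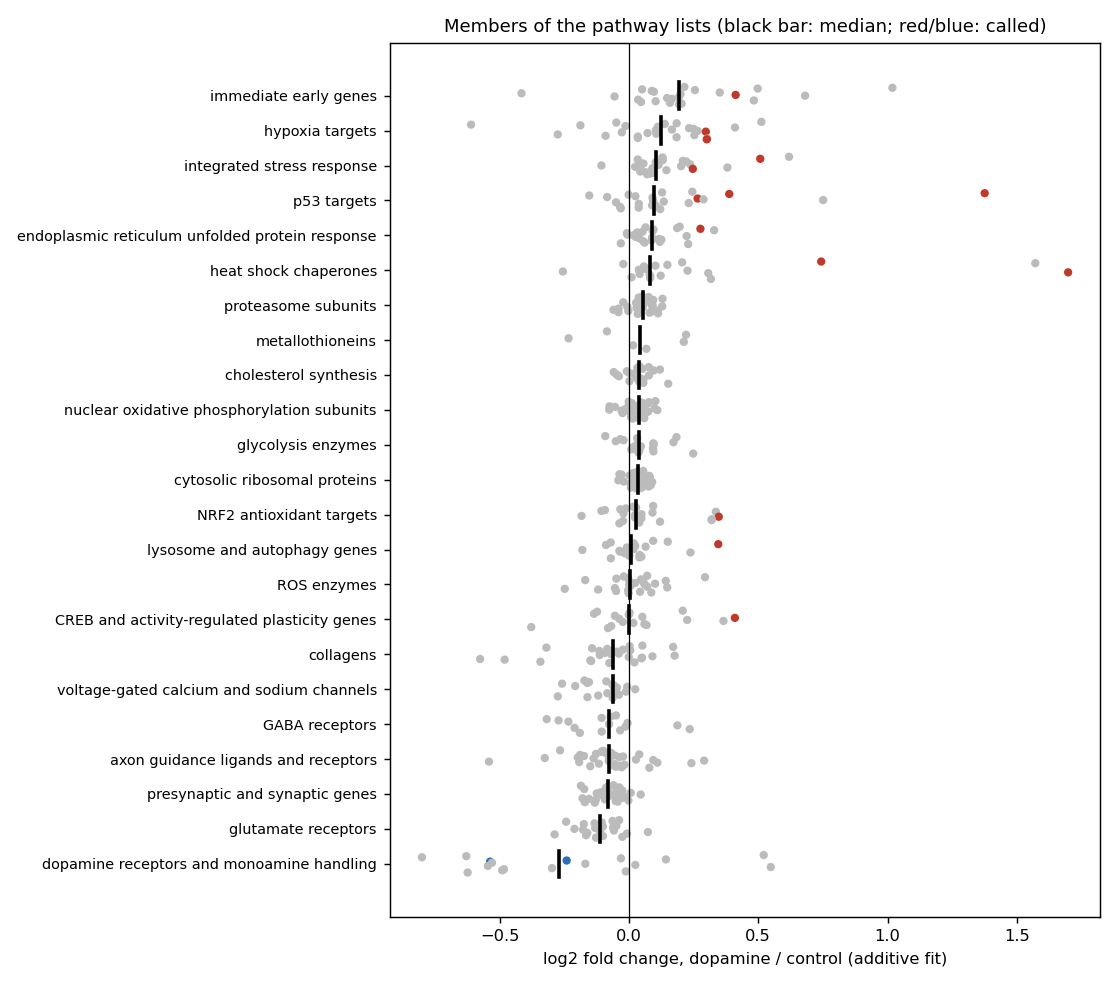
Log2 fold change of dopamine over control in the additive fit for tested members of 23 pathway lists, ordered by the list's median (black bar), with called genes in red (higher) or blue (lower) and others in grey. Median changes run from 0.19 for immediate early genes to −0.27 for dopamine receptors and monoamine handling genes.

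FTL, the ferritin light chain that stores iron, measured between 346 and 433 CPM in the 6 dopamine libraries and between 299 and 337 CPM in the 6 controls, and rose by 0.35 (log2, SE 0.050, adjusted p = 0.00498). TFRC, the transferrin receptor that takes iron up, rose by 0.25 (adjusted p = 0.0229), while the ferritin heavy chain FTH1 changed by 0.02 (adjusted p = 0.911). With a library left out, the FTL call held in all 12 fits and that of TFRC in 6. FTL has processed copies in the genome, which makes its count uncertain. FTL was the single call among 22 targets of the antioxidant factor NRF2 tested, whose median was 0.03.

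PER1, a clock gene that also responds to cyclic AMP and glucocorticoids, rose by 0.41 (SE 0.060, adjusted p = 0.00579), from 43.5 ± 4.60 to 57.8 ± 3.85 CPM (SD, n = 6 and 6), with an equal change of 0.41 in each inhibitor state and no overlap. It was the single call among 18 activity-regulated genes, whose median was 0.00. NR4A2, an orphan nuclear receptor needed for dopamine neuron development and also an immediate early gene, measured 26.8, 28.2 and 27.5 CPM with dopamine and 32.4, 32.2 and 23.8 CPM with dopamine and the inhibitor. Its control libraries measured 18.5, 20.7 and 21.5 CPM without and 20.2, 26.6 and 21.0 CPM with the inhibitor, so that dopamine + inhibitor 3 lay below control + inhibitor 2. NR4A2 rose by 0.41 (SE 0.083, adjusted p = 0.0354), a call kept in 2 of 12 fits with a library left out, those without control + inhibitor 2 or dopamine + inhibitor 3. It was the only call among 23 immediate early genes tested, of which 21 had a positive change (median 0.19); FOSB changed by 1.02 (adjusted p = 0.0984) and FOS by 0.21 (adjusted p = 0.596).

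The remaining genes among the 15 largest rises with at least 1 CPM had mixed roles. MFSD2A, a transporter of lysophospholipids that carry omega-3 fatty acids, rose by 0.47 (adjusted p = 0.00704), ICAM5, an adhesion protein of telencephalic dendrites, by 0.51 (adjusted p = 0.00925), and CCDC9 by 0.53 (adjusted p = 0.00193). RHCE, which shares near-identical sequence with RHD, rose by 0.72 from 1.87 ± 0.261 to 3.07 ± 0.451 CPM (adjusted p = 0.0292). The noncoding RNAs NEAT1, a scaffold of nuclear paraspeckles, and MIR22HG rose by 0.45 each, and ALMS1-IT1, annotated as an intronic transcript of ALMS1, by 0.88. SH3BGR (0.49), SWI5 (0.44) and the homeobox gene IRX5 (0.42) completed that set, and the autophagy gene WIPI1 rose by 0.35. With a library left out, the calls of MFSD2A, ICAM5 and CCDC9 held in all 12 fits, IRX5 in 10 and ALMS1-IT1 in 7. Those of RHCE, NEAT1, MIR22HG and SWI5 held in 5 each, WIPI1 in 3 and SH3BGR in 1. Below 1 CPM, BIRC7 rose by 2.32 (SE 0.26, adjusted p = 0.00145), from 0.113 to 0.236 CPM in controls to 0.497 to 1.20 CPM with dopamine. The noncoding RNAs LINC00473 and LOC105373359 rose by 2.22 (adjusted p = 0.0229) and 1.87 (0.00193). CBR1 rose by 1.82 (0.0379), ACP5 by 1.66 (0.0257) and GPRC5A by 1.21 (0.0195). With a library left out, the calls of BIRC7 and LOC105373359 held in all 12 fits, GPRC5A in 8, LINC00473 in 5, ACP5 in 4 and CBR1 in 3.

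Both monoamine oxidase genes, which lie next to each other on the X chromosome, fell. MAOA (chrX:43655006-43746817) measured 52.6, 53.7 and 54.9 CPM with dopamine, 54.1, 52.2 and 53.5 CPM with dopamine and the inhibitor, 65.8, 62.7 and 61.4 CPM in control libraries and 61.8, 66.6 and 61.2 CPM in control + inhibitor libraries. The highest dopamine library lay below the lowest control library, and MAOA decreased by 0.24 on the log2 scale (SE 0.037, adjusted p = 0.00756), by 0.24 without and 0.25 with the inhibitor. MAOA was called whichever library was left out, with a highest adjusted p of 0.0327. MAOB (chrX:43766610-43882450) measured 3.86, 3.64 and 3.08 CPM with dopamine, 4.33, 3.38 and 3.64 CPM with dopamine and the inhibitor, 5.31, 4.25 and 4.74 CPM in control libraries and 6.85, 5.51 and 5.34 CPM in control + inhibitor libraries. Its groups did not overlap within either inhibitor state, and it decreased by 0.54 (SE 0.11, adjusted p = 0.0372), a call kept in 3 of 12 fits with a library left out, those without control 2, control + inhibitor 3 or dopamine + inhibitor 1. In bulk RNA, fewer cells of a type and less RNA per cell cannot be told apart.

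The list of dopamine receptors and monoamine handling genes held 20 genes, of which 18 were tested, and MAOA and MAOB were its 2 calls. Of the 18, 14 had a negative change (median −0.27, log2), and 10 were negative in both inhibitor states. Over all genes tested, 9688 of 18663 were negative, 5070 were negative in both states and 23 (0.123%) were called lower. The vesicular transporter SLC18A1 changed by −0.80 (adjusted p = 0.204) and SLC22A3, a low-affinity monoamine transporter, by −0.62 (adjusted p = 0.0982). Both had dopamine below control libraries within each inhibitor state without overlap, as did 139 (0.745%) of all genes tested. SLC18A1 was low, at 0.336 to 0.525 CPM with dopamine and 0.527 to 1.17 CPM in controls. GCH1, which makes the cofactor for tyrosine hydroxylase, changed by −0.49 (adjusted p = 0.121) and DDC, which makes dopamine from its precursor, by −0.63 (adjusted p = 0.273). TH, the rate-limiting enzyme of dopamine synthesis, was low at 1.45 ± 0.250 CPM in controls and 2.08 ± 0.631 CPM with dopamine (SD, n = 6 and 6), a change of 0.52 (adjusted p = 0.285). The receptors DRD1 and DRD2 measured 3.01 and 7.17 CPM on average and changed by −0.17 (adjusted p = 0.869) and 0.02 (adjusted p = 0.97). The vesicular transporter SLC18A2 changed by −0.03 (adjusted p = 0.953). SLC29A4, the most abundant transporter of the list at 47.2 CPM, changed by −0.18 without the inhibitor and 0.16 with it, and the difference did not pass its own test (adjusted p = 0.35).

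**Figure D4:**
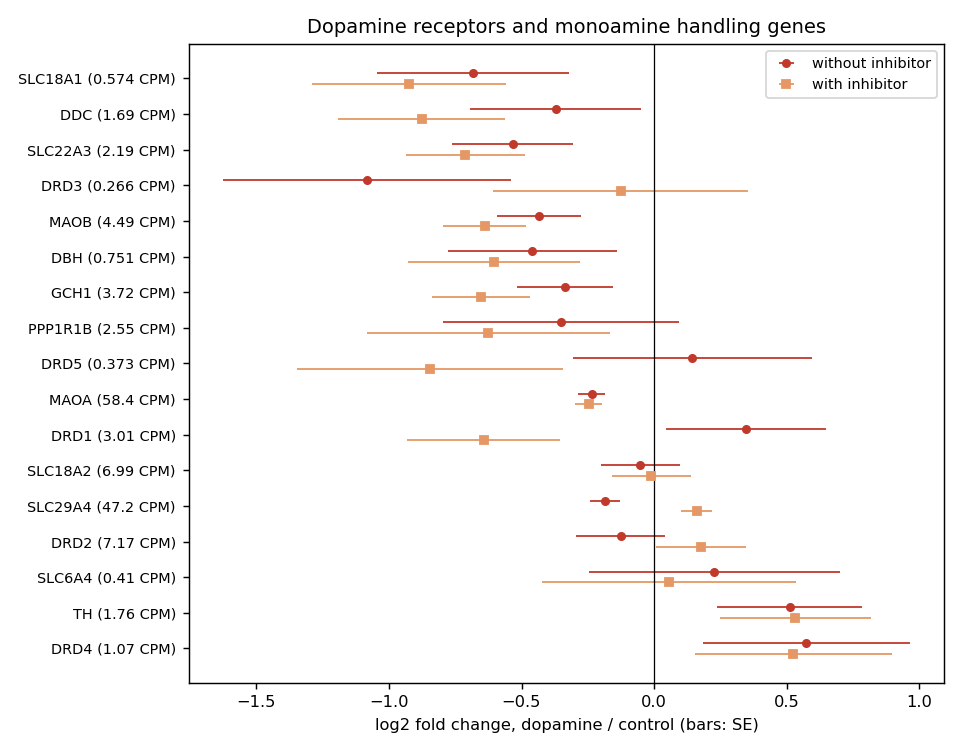
Log2 fold change of dopamine over control for tested genes of dopamine reception and monoamine handling, without the inhibitor (circles) and with it (squares), with SE bars and each gene's mean CPM over the 12 libraries. MAOA has the shortest bars and nearly equal changes of −0.24 and −0.25, and DRD1 has estimates of opposite sign.

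The other falls included several receptors. TACR1, the receptor for substance P, measured 9.78, 11.7 and 10.3 CPM with dopamine and 12.6, 11.4 and 12.8 CPM with dopamine and the inhibitor, below all controls, which ranged from 15.1 to 20.4 CPM. It decreased by 0.62 (log2, SE 0.078, adjusted p = 0.00193) and was called whichever library was left out. The vesicular glutamate transporter SLC17A8 decreased by 0.59 (adjusted p = 0.0425), the receptor for melanin-concentrating hormone MCHR1 by 0.53 (adjusted p = 0.0361), and the adrenergic receptor ADRA1A by 0.28 (adjusted p = 0.0394). RGS9, a regulator of G protein signalling known from striatal neurons, decreased by 0.40 (adjusted p = 0.0394). Of 12 fits with a library left out, the calls of MCHR1 and ADRA1A held in 3 each and those of SLC17A8 and RGS9 in 2.

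HLA-DRA, the alpha chain of the MHC class II molecule DR, measured 0.867 to 1.89 CPM in dopamine libraries and 1.86 to 3.15 CPM in controls and decreased by 1.03 (log2, SE 0.17, adjusted p = 0.0113). CD74, its invariant chain, decreased by 0.97 (SE 0.17, adjusted p = 0.0215); it measured 2.09, 2.42 and 3.18 CPM with dopamine, 4.07, 4.35 and 3.94 CPM with dopamine and the inhibitor, and between 3.92 and 8.50 CPM in controls. The CD74 call was lost without dopamine 1 (adjusted p = 0.056) or dopamine 2 (0.0639). MS4A1, the B cell marker CD20, decreased by 1.22 (adjusted p = 0.015) and SASH3, a lymphocyte adaptor, by 1.12 (adjusted p = 0.031). SASH3 averaged 0.725 CPM, and its call held in 3 of 12 fits with a library left out. CALCR, the calcitonin receptor, was also low and decreased by 1.53 (adjusted p = 0.0229), a call that held in 7 of those 12 fits. CD74 was the most abundant of these immune genes, at 6.47 ± 1.90 CPM in controls and 3.34 ± 0.932 CPM with dopamine (SD, n = 6 and 6). Of 10 MHC class II genes tested, 8 had a negative change (median −0.21), 7 were negative in both inhibitor states, and only HLA-DRA and CD74 were called. Over all genes tested, 9688 of 18663 were negative, 5070 were negative in both states and 23 (0.123%) were called lower. The MHC class II list was drawn up after the values were seen. Of 12 other markers of microglia and blood, 3 passed the filter on low counts and 2 were at 0 in all libraries. Of those 3, TAL1 changed by −0.20 (adjusted p = 0.62), PTPRC by −0.07 (adjusted p = 0.971) and AIF1 by 1.63 (adjusted p = 0.208), the last at 0.126 to 0.578 CPM with dopamine and 0 to 0.301 CPM in controls. The 12 markers summed to 34.1 to 57.5 CPM with dopamine and 47.7 to 60.1 CPM in controls, nearly all of it TAL1. Without TAL1 the sum was 1.76 to 2.91 CPM with dopamine and 0.867 to 3.41 CPM in controls, and the part of these markers in the falls was not tested.

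HEPACAM, an adhesion protein of astrocytes, decreased by 0.70 (log2, SE 0.11, adjusted p = 0.0113), from 9.01 ± 0.966 to 5.54 ± 1.02 CPM (SD, n = 6 and 6), and MBP, myelin basic protein, by 0.43 (SE 0.090, adjusted p = 0.0394), from 17.6 ± 1.77 to 13.1 ± 1.79 CPM. Of 18 other genes of radial glia and astrocytes, 13 had a negative change (median −0.07) and 0 were called by edgeR or DESeq2, with 1 at an unadjusted p under 0.05; their sum was 3384 to 3955 CPM with dopamine and 3579 to 4086 CPM in controls, and its part in the HEPACAM result was not tested. MBP was the single call among 11 oligodendrocyte lineage genes tested, beside 0.123% of all genes tested called lower. Of the 11, 9 had a negative change (median −0.24), beside 9688 of 18663 over all genes tested. PDGFRA changed by −0.44 (adjusted p = 0.121). The summed level of the oligodendrocyte list was 322 to 370 CPM with dopamine and 322 to 351 CPM in controls. Without its most abundant member, not reported here, the sum was 127 to 148 CPM with dopamine and 147 to 172 CPM in controls. The part of this list in the MBP result was not tested. The matrix protease inhibitor TIMP3 decreased by 0.46 (adjusted p = 0.0292), and falls in VSTM4, CNTNAP5, LRRN2, GPRIN2 and SGSM1 lay between 0.25 and 0.40 on the log2 scale. With a library left out, the HEPACAM call held in all 12 fits, LRRN2 in 11, CNTNAP5 in 8 and SGSM1 in 7. The TIMP3 call held in 5, MBP in 4, GPRIN2 in 3 and VSTM4 in 2.

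**Figure D5:**
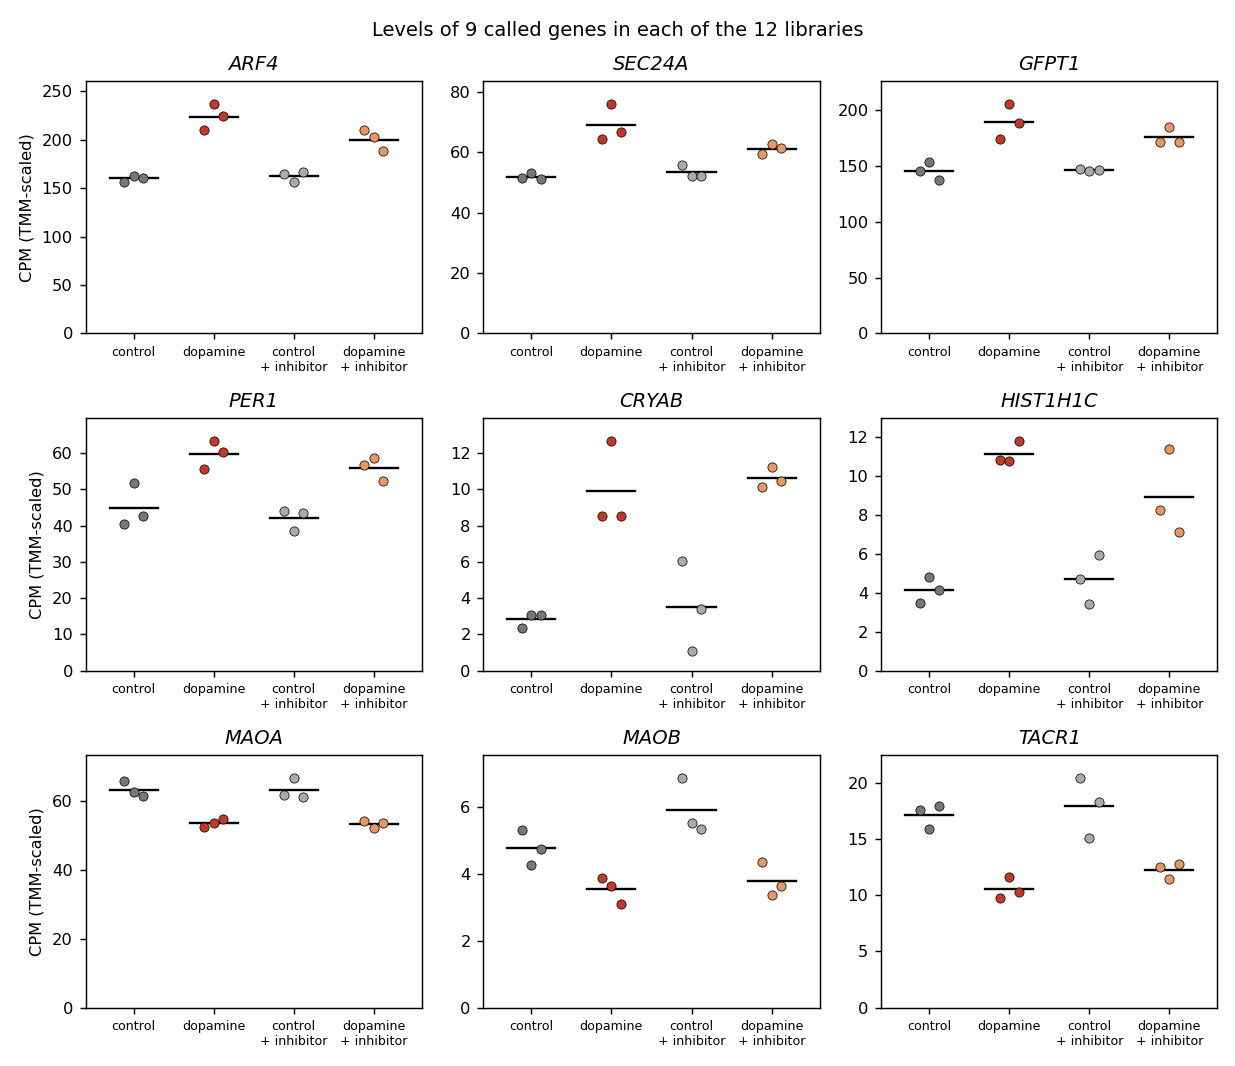
CPM of 9 called genes in each of the 12 libraries by group, with a bar at the mean of 3 libraries. The 6 dopamine libraries lie above the 6 controls for ARF4, SEC24A, GFPT1, PER1, CRYAB and HIST1H1C and below them for MAOA and TACR1; for MAOB they lie below within each inhibitor state.

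Apart from FTL, no gene tested in the lists of NRF2 targets and of enzymes for reactive oxygen species was called. HMOX1 changed by 0.02 (log2, adjusted p = 0.983), NQO1 by 0.09 (adjusted p = 0.834), TXNRD1 by −0.03 (adjusted p = 0.813), SLC7A11 by −0.11 (adjusted p = 0.606), SOD2 by −0.02 (adjusted p = 0.93) and TXNIP by 0.07 (adjusted p = 0.63). HMOX1 had estimates of 0.32 without and −0.29 with the inhibitor. NR4A1 changed by 0.20 (adjusted p = 0.248) and BDNF by 0.21 (adjusted p = 0.447). Of 25 listed enzymes that make or remove reactive oxygen species, 15 had a positive change. Of these 25, 0 were called by edgeR or DESeq2 and 0 were at an unadjusted p under 0.05. The oxidases MAOA, MAOB and ERO1A, called in the pooled comparison, were not in that list. Several neuronal lists were shifted downward by small amounts with 0 calls by edgeR: 22 of 23 glutamate receptors (median −0.11, log2), 31 of 33 synaptic genes (−0.08) and 22 of 23 calcium and sodium channels (−0.06) had negative changes, and pan-neuronal genes had a median of −0.04. At an unadjusted p under 0.05 these lists held 5, 9, 5 and 1 genes, and DESeq2 called 2, 1, 1 and 0. The median without and with the inhibitor was −0.17 and −0.06 for glutamate receptors and −0.15 and −0.02 for synaptic genes. It was −0.12 and −0.02 for channels and −0.06 and −0.02 for pan-neuronal genes, differences that were not tested. Negative in both states were 16 of 23, 18 of 33, 15 of 23 and 11 of 16 genes, beside 5070 of 18663 tested. Cytosolic ribosomal proteins had positive changes for 40 of 44 (median 0.03), with 0 calls by edgeR or DESeq2 and 0 at an unadjusted p under 0.05, and their median was 0.10 without and −0.02 with the inhibitor.

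Markers of non-neuronal tissue varied widely between libraries of 1 treatment. The choroid plexus list, led by OTX2, had a median change of 0.35 without the inhibitor and −0.33 with it, and its sum was 150 to 337 CPM with dopamine and 110 to 377 CPM in controls. The eye and pigment list, led by RPE65, summed to 115 CPM in dopamine + inhibitor 3 and to between 25.3 and 34.4 CPM in the 6 controls. In the pooled comparison OTX2 changed by 0.13 (adjusted p = 0.907), HOXB3, the most abundant midbrain and hindbrain marker, by −0.04 (adjusted p = 0.983), and no gene of these lists was called by edgeR or DESeq2; 0, 2 and 1 genes of the choroid plexus, eye and hindbrain lists were at an unadjusted p under 0.05. Without dopamine + inhibitor 3 the comparison called 103 genes. Cell cycle genes, led by TOP2A, summed to 364 to 546 CPM with dopamine and 366 to 524 CPM in controls.

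Dopamine was also set against cocaine, a blocker of monoamine transporters given at 1 µM in the same vehicle, over 18 libraries with the inhibitor as a block. Of 18913 genes tested, 612 (3.24%) were called, 245 of them higher and 367 lower with dopamine, and 27 of the 106 genes were among them. The 6 dopamine libraries that chose the 106 genes also enter this comparison. The count of 612 was set by single libraries: it was 1210, 59 and 6 without cocaine 1, 2 and 3, 39, 1986 and 23 without cocaine + inhibitor 1, 2 and 3, 58, 182 and 96 without dopamine 1, 2 and 3, and 32, 72 and 298 without dopamine + inhibitor 1, 2 and 3. Of the 27 genes, NR4A2, MIR22HG and SAR1B were called in all 15 alternatives run. NR4A2 was higher with dopamine than with cocaine by 0.77 (log2, adjusted p = 0.0128); its pooled changes against the shared controls were 0.41 for dopamine and −0.35 for cocaine (adjusted p = 0.0533). MIR22HG was higher by 0.64 (adjusted p = 0.0123) and SAR1B by 0.28 (adjusted p = 0.0123), with cocaine changes of −0.19 (adjusted p = 0.224) and −0.01 (adjusted p = 0.904). GFPT1 and ICAM5 were higher by 0.24 (adjusted p = 0.021) and 0.43 (adjusted p = 0.0198), each called in 13 of 15. MAOA decreased by 0.32 with cocaine (adjusted p = 0.0042) and 0.24 with dopamine, and the difference of 0.08 (SE 0.062) did not pass (adjusted p = 0.468). Against the controls that both treatments share, GDF15 changed by 1.38 with dopamine and 1.25 with cocaine (adjusted p = 0.00925 for cocaine), HIST1H1C by 1.18 and 0.92 (0.00423), ARF4 by 0.39 and 0.21 (0.0064), FTL by 0.35 and 0.29 (0.00328), and HLA-DRA by −1.03 and −0.76 (0.00696). Other secretory genes also rose with cocaine: SEC13 by 0.24 and 0.23 (0.00221), SRPRA by 0.35 and 0.20 (0.00849), SRP54 by 0.31 and 0.18 (0.00967), P4HB by 0.36 and 0.20 (0.0159). SRPRB (0.27 and 0.02, 0.802), SEC24A (0.30 and 0.09, 0.259) and ERO1A (0.30 and 0.08, 0.333) did not pass with cocaine. HSPA1A changed by 0.74 with dopamine and 1.19 with cocaine (0.00179), and the difference of −0.44 did not pass (adjusted p = 0.142).

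The authors' deposited tables of their own comparisons listed 64 genes for dopamine and 12 for dopamine with the inhibitor, and 3 genes, BIRC7, CRYAB and LOC105373359, stood in both. Of those lists, 64 and 10 genes were tested in the pooled comparison, and 12 and 4 were called, beside 0.568% of all genes tested. All 64 and all 10 had the same direction there. The authors' comparisons each covered 1 inhibitor state and used these same libraries, so this agreement was largely built in and supports nothing. In the authors' deposited tables CRYAB had log2 fold changes of 1.81 without and 1.59 with the inhibitor, and GDF15 was listed at 1.85 without it. The ARF4, GFPT1, MAOA and TACR1 changes described here were below the smallest change in the authors' deposited tables, 1.03 on the log2 scale.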

How the data were processed

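The authors deposited raw whole-number read counts per gene beside TPM values for each library. Per the submitters' processing notes the genome was GRCh38 (hg38). For the aligner, the counter, its strand setting and the annotation, nothing was given in the sources used here. Counts of overlapping, antisense and near-identical genes are therefore uncertain. The authors also deposited tables holding a log2 fold change and an FDR-adjusted p-value per gene; the tables' values match control for dopamine and control + inhibitor for dopamine + inhibitor. Of the deposited gene names, 28 had been turned into dates, and 26 of those were tested.

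Counts were filtered (edgeR filterByExpr, minimum count 10), scaled with TMM factors, and fitted with edgeR 4.0.16 (R 4.3.3; quasi-likelihood, robust) as inhibitor + treatment over 12 libraries. A fit with 1 mean per group gave the effect in each inhibitor state and their difference; 18 libraries gave dopamine against cocaine. p-values were adjusted by Benjamini-Hochberg over all genes tested, at 0.05. Replicates were compared first: no pair was identical (chi-square per gene 3.54 to 18.1). The labels give no shared replicate number. The code was tested on simulated counts.

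Named genes were, among called genes with a mean of at least 1 CPM, the 15 largest changes in each direction, every called member of the 38 gene lists, and a panel of redox and dopamine genes. Members and lists were chosen with earlier results of these data known. Alternatives were DESeq2 1.42.0, limma 3.58.1 (voom, and log2(TPM + 1)), other filters and scalings, and leaving out each library. Of 23 called lower genes, 3 are not reported here, nor are 2 other tested list members.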

Additional observations from a re-analysis of the deposited data

Results flagged for a closer look

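DDIT4, an inhibitor of mTOR signalling that responds to stress and hypoxia, was picked out because the effect of dopamine differed between the inhibitor states. It measured 215, 204.5 and 213 CPM with dopamine and 147, 168 and 150.3 CPM in control libraries, but 147, 160.2 and 134 CPM with dopamine and the inhibitor and 198, 182 and 193 CPM in control + inhibitor libraries. Dopamine libraries were all above controls without the inhibitor and all below them with it. The difference between the dopamine effects was −0.82 on the log2 scale (SE 0.094, adjusted p = 0.00466 by edgeR's quasi-likelihood test with Benjamini-Hochberg adjustment), and the pooled change was 0.03 (adjusted p = 0.964). It was the single gene of 18663 to pass that test, and the cause was not tested.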

How the results depend on the processing

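No paired analysis was possible because the labels give no replicate number shared between groups. The pooled count of 106 calls was 319 with DESeq2 (195 higher, 124 lower) and 67 with limma on log2(TPM + 1) (53 higher, 14 lower), and the lower calls were 37 both with the average of the 2 state effects and with no filter on low counts; the other alternatives for all calls gave 97 to 151. DESeq2 called 7 of the integrated stress response genes where edgeR called 2, 6 against 1 for the unfolded protein response, 4 against 2 for hypoxia targets, 3 against 1 for immediate early genes, 4 against 2 for monoamine handling and 5 against 3 for golgins. With a library left out, calls ranged from 34 to 171, higher calls from 27 to 107, lower calls from 7 to 64, calls without the inhibitor from 2 to 415, calls with it from 0 to 2, calls of a difference between states from 1 to 2, and dopamine against cocaine from 6 to 1986; that last count was 1509 with DESeq2 and 351 with no filter. The 394 genes whose groups did not overlap in either state were 388 with total counts only and 454 to 698 with a library left out, an alternative chosen after seeing the data. Over 38 named called genes and 23 alternatives, 642 of 874 results kept their call, 232 lost it with the same sign and 0 reversed; 7 genes, HIST1H1C, CCDC9, ICAM5, MFSD2A, HLA-DRA, FTL and PER1, kept it in all. Estimates near 0 changed sign when a library was left out, ranging from −0.27 to 0.11 for DRD1, −0.099 to 0.084 for DRD2, −0.098 to 0.035 for SLC18A2, −0.071 to 0.10 for HMOX1 (−0.0033 on log2(TPM + 1)), −0.044 to 0.0088 for SOD2, −0.043 to 0.27 for OTX2, −0.23 to 0.24 for HOXB3 and −0.034 to 0.11 for DDIT4. The cause was not tested. With 3 libraries a group, adjusted p-values near 0.05 depend on single libraries.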
